A study of Mus musculus with 12 samples.

Results

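The Hes and Hey genes encode transcriptional repressors, some of which Notch signalling switches on directly. The 9 genes followed here were Hes1, Hes2, Hes3, Hes5, Hes6, Hes7, Hey1, Hey2 and Heyl, and the question was where CpG methylation at these genes differed when Tet proteins were lost from mouse embryonic stem cells (ESCs). DNA methylation had been measured by reduced representation bisulfite sequencing (RRBS), which cuts DNA at CCGG, keeps short fragments and reads methylated cytosines after bisulfite conversion. The data were 5 lists of single CpGs whose methylation had passed a test between genotypes, with 31671 entries in all, of which 23 belonged to the Hes and Hey genes. An entry was taken where the list named a Hes or Hey gene as the nearest gene, at any distance, and in the list of the double knockout where the CpG lay in the mm9 gene or within 50 kb of it, because the gene columns of that list stood out of row order. The members were therefore chosen from the measured calls themselves, so their differences are given as a description and without a test. By this rule 7 of the 9 genes had an entry, and Hes5 and Hey2 had none.

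The knockout clones were 3 Tet1-/- (Tet1 KO), 2 Tet2-/- (Tet2 KO), 2 DKO (without both of these) and 2 TKO clones (without Tet3 as well), and the controls were 3 wild-type (WT) clones. All were undifferentiated 129-derived ESCs, grown on gelatin, and all, WT included, carried an eGFP reporter knocked into the Pou5f1 locus and went back to 1 parental clone. The knockouts carried CRISPR indels and were isolated as single clones. Clones of a genotype entered each value together, and the lists held neither a value for a single clone, nor a methylation level, nor a read depth. The spread between clones and the depth behind a value are therefore unknown here, and a difference between genotypes cannot be told apart from a difference between clones. The genotype fields of 3 clones, 1 DKO and both TKO, named another knockout than their titles (Tet2-/- for the DKO clone and DKO for both TKO clones), and the titles were followed, so every DKO and TKO value below rests on titles.

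Notch is a receptor that a ligand on a neighbouring cell activates. Proteases then cut it, and its inner part moves to the nucleus and joins Rbpj. Some Hes and Hey genes are among the first genes this complex induces. Hes and Hey proteins are basic helix-loop-helix (bHLH) factors with an Orange domain that recruit co-repressors and hold back proneural genes such as Neurog2. In ESCs Hes1 is known for its fluctuating level. Tet proteins oxidise 5-methylcytosine, a step in its removal, and bisulfite sequencing does not separate the oxidised 5-hydroxymethyl form from 5-methylcytosine. Whether the genes responded to Notch in these cells was not measured by these data, so the name Notch targets is background.

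The CpGs on which the account turns lay at the start sites of Hes7 and Hes2, and their reference sequence is shown so that the listed cytosines can be seen in place. Both stretches are the forward strand of mm9 (NCBIM37), both genes are read from this strand, and capitals mark the listed CpGs.
Hes7 start site, chr11:68933936-68933965: ggcagcaCGCGctgagtccacCGaagggtc
Hes2 start site, chr4:151533046-151533075: tcttgggaagCGgagctaCGgtttcttttt
The capitals of Hes7 are 3 CpGs, at positions 68933943, 68933945 and 68933957 of chromosome 11. They lie 12 and 10 bp before and 2 bp after the RefSeq start site implied by the deposited distances, and inside the first exon of the GENCODE transcript, which starts further upstream, ahead of the coding sequence. The capitals of Hes2 are 2 CpGs, at positions 151533056 and 151533064 of chromosome 4, 80 and 88 bp after the start site and in the untranslated part of the first exon.

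Hes7 is the repressor of the mouse segmentation clock, which oscillates in presomitic mesoderm. It held the largest differences of the family, and they were in DKO cells. DKO minus WT was 80.6 percentage points at position 68933943, 95.7 points at 68933945 and 95.4 points at 68933957, with a mean of 90.6 points (SD over these 3 CpGs 8.62, which are neighbours and not replicates). All 3 were higher in DKO. Since methylation lies between 0 and 100%, a difference of 95.7 points places DKO at 95.7% or more and WT at 4.35% or less at position 68933945. At 68933957 the same arithmetic gives DKO at least 95.4% and WT at most 4.60%. The median absolute difference over the DKO list was 37.5 points. Of its 7078 entries, 48 were as large as the 95.7 points (0.678%), 49 as large as the 95.4 points (0.692%) and 181 as large as the 80.6 points (2.56%). Of 499 DKO entries within 500 bp of a protein-coding start, 16 were at 80 points or more, over 12 genes, and 3 of the 16 were these.

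The single and triple knockouts had fewer listed CpGs at the Hes7 start. In Tet1 KO cells the middle CpG alone, at 68933945, was listed, 39.3 points higher than in WT. If the WT clones had the same level in both lists, which share them, Tet1 KO lay between 39.3 and 43.6% there, against at most 4.35% in WT. In Tet2 KO and TKO cells no CpG within 2000 bp of the Hes7 start was listed. A CpG can be absent from a list because it was not covered, had under 10 reads, or did not reach 25 points or the q-value, so its absence gives no value. The nearest Hes7 entry in TKO cells was at -2925 bp from the start, at position 68931030, and was 39.8 points higher than in WT. Its surroundings, with the listed CpG in capitals, read on the forward strand:
Hes7 2.9 kb upstream, chr11:68931001-68931060: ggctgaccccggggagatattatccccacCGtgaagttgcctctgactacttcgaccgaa

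**Figure D1:**
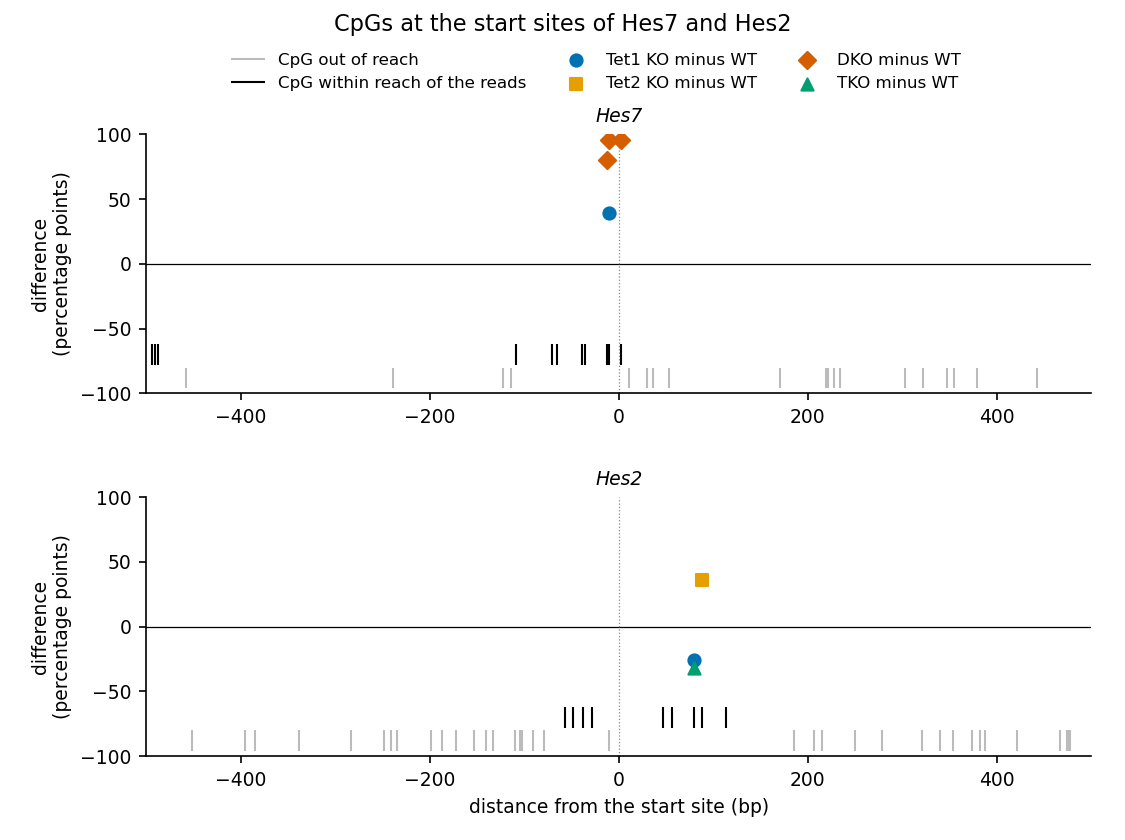
Listed CpGs within 500 bp of the start sites of Hes7 (top) and Hes2 (bottom): the horizontal axis is the distance from the start in bp, the vertical axis the difference in methylation in percentage points, and symbols give the comparison. Black ticks are CpGs within predicted reach of the reads and grey ticks the others. The 3 DKO points of Hes7 stand at 80.6 to 95.7, while Hes2 has points of both signs 8 bp apart.

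The 3 Hes7 CpGs share 1 predicted CCGG fragment of 76 bp with 6 CpGs, so a single fragment carries all near-start values of the gene. Within 500 bp of the start there were 30 CpGs, of which 11 were within predicted reach of the 38-base reads. The listed CpGs at 68933943 and 68933945 form the CGCG of a CACGCG hexamer that begins 14 bp before the start. CACGCG is the class C site, a sequence that Hes and Hey proteins bind. It occurred on either strand in the promoters, taken as 250 bp before to 50 bp after the start, of 11.6% of 22368 protein-coding genes and of 4 of the 9 members (Hes1, Hes2, Hes7 and Hey1). A match is a run of letters and no evidence of binding.

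The 250 bases ahead of the first exon are shown for both genes with the motif matches in capitals. The listed CpGs lie farther on, within that first exon. The motifs searched on both strands were the N box (CACNAG), the E box (CANNTG), the class B site (CACGTG, itself an E box), the class C site (CACGCG) and the core that Rbpj binds (TGGGAA).
Hes7 upstream, chr11:68933656-68933905: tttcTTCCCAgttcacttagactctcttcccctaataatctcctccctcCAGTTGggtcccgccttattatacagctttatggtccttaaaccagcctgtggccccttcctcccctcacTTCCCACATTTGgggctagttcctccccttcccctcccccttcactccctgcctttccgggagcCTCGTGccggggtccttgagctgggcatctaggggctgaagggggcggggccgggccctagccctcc
Hes2 upstream, chr4:151532726-151532975: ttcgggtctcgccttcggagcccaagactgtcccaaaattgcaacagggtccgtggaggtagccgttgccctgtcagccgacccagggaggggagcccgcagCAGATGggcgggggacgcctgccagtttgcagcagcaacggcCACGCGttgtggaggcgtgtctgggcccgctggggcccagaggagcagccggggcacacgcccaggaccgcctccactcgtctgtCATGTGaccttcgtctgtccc
The Hes7 stretch holds the Rbpj core on the reverse strand at 2 places, 2 E boxes, and 1 N box on the reverse strand. The Hes2 stretch holds the class C site, at -106 bp from the start, and 2 E boxes. The Rbpj core was found in the promoters of 6 of the 9 members (Hes1, Hes3, Hes5, Hes7, Hey1 and Hey2) and in 24.3% of all. The Hes2 start-site stretch shown above also holds TGGGAA, just before its first listed CpG. It lies beyond the 50 bp limit and is not counted. The N box was in 3 members and 41.8% of all, the E box in 8 members and 69.6% of all, and the class B site in no member and 7.78% of all.

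Farther out, 2 CpGs in an intron of the neighbouring lipoxygenase gene Aloxe3, 18.9 kb after the Hes7 start, were within the 50 kb window. At position 68952862 Tet1 KO was 52.4 points, Tet2 KO 44.6 points and TKO 40.6 points higher than WT, while DKO was 35.1 points lower than WT. At position 68952874, 12 bp away, Tet2 KO was 27.2 points higher and DKO 27.1 points lower than WT. The DKO sign was thus opposite to that of all 3 other genotypes at the first CpG and of Tet2 KO, the other genotype listed, at the second, and also opposite to the DKO sign at the Hes7 start. With 1 WT level for all 4 lists, position 68952862 was 87.5 to 100% methylated in Tet1 KO, 79.7 to 92.2% in Tet2 KO, 0 to 12.5% in DKO and 75.7 to 88.1% in TKO, against 35.1 to 47.6% in WT. All 4 values share the same WT clones. Aloxe3 is the nearest gene of these CpGs in the lists whose gene column was in order, so only their DKO values are among the 23 entries.

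**Figure D2:**
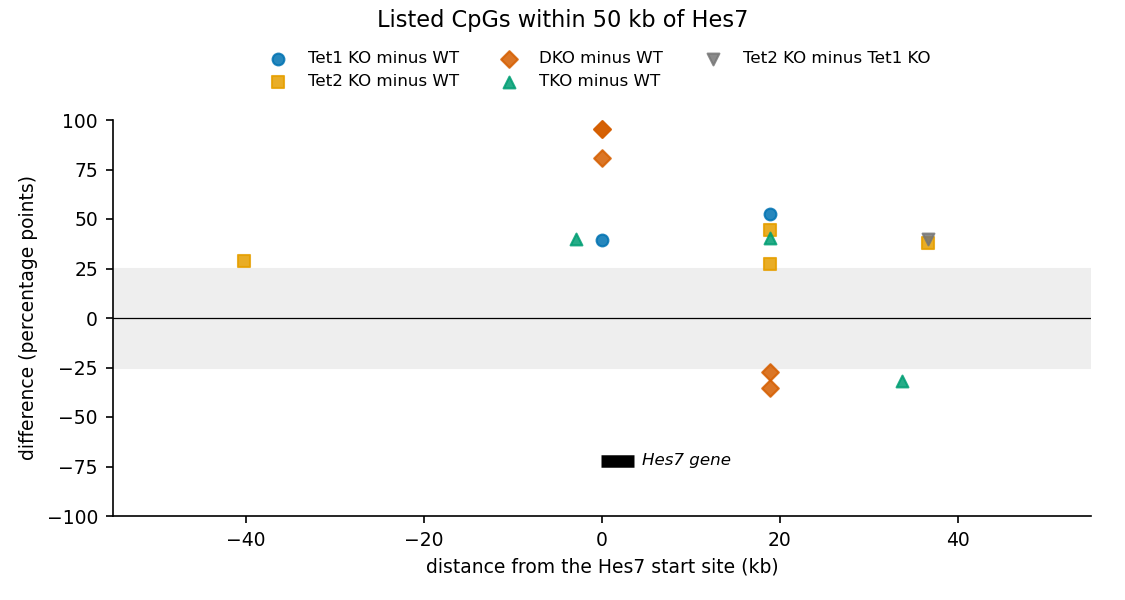
Listed CpGs in the region of Hes7: the horizontal axis is the distance from its start site in kb, the vertical axis the difference in percentage points, symbols give the comparison, and the black bar is the gene. The grey band, below 25 points, can hold no entry. DKO points lie at 80.6 to 95.7 at the start and at -27.1 and -35.1 near 18.9 kb.

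Hes2, a less studied member of the Hes family, had an entry near its start in 3 of the 4 knockouts, and its signs differed between them. At position 151533056, 80 bp after the start, Tet1 KO was 25.7 points and TKO 32.4 points lower than WT. At position 151533064, 8 bp further, Tet2 KO was 36.0 points higher than WT. No genotype had both CpGs listed, so the signs belong to different CpGs. DKO had no entry within 2000 bp of the start. The Tet1 KO difference was near the 25-point minimum, and 94.9% of the Tet1 KO entries were at least as large. In Tet2 KO, 53.4% of the entries reached 36.0 points, and in TKO 64.8% reached 32.4 points. Both CpGs lie in 1 predicted fragment of 57 bp with 3 CpGs. Within 500 bp of the Hes2 start, 9 of 45 CpGs were within predicted reach.

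Around Hes2 the DKO window held 3 more CpGs, all nearer to another gene. In introns of Espn, which encodes the actin-bundling protein espin, DKO was 53.8 points higher than WT at position 151500861 and 35.8 points higher at 151500975. At the first of these, Tet1 KO was 30.4 points and TKO 26.2 points higher than WT, and at the second TKO was 29.2 points higher. The third CpG, at 151570458 and nearest to Acot7, was 37.8 points lower in DKO than in WT, with a listed difference of -37.8. It was the 1 entry of the 23 that lay in no predicted fragment.

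Hes3, which helps keep neural progenitors in the embryonic brain of the mouse, had an entry 7.7 kb after its start in each of 2 genotypes. DKO was 48.75 points higher than WT at position 151658093 and TKO was 32.7 points higher than WT at position 151658067 of chromosome 4. These are different CpGs, 26 bp apart, of 1 predicted fragment of 203 bp. The list annotates the TKO position to the last exon of a transcript of the neighbouring Gpr153, which encodes an orphan receptor, and GENCODE places a Gpr153 start 1588 bp from it, nearer than that of Hes3. The CpGs thus lie at the end of Gpr153, 1.99 kb (DKO) and 2.01 kb (TKO) beyond the 3' end of Hes3.

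Hes1, the most widely used Notch effector, had 1 CpG, 21.1 kb after its start in DNA between genes. At position 30086523 of chromosome 16 Tet2 KO was 76.7 points higher than WT, a size reached by 207 of 6888 entries of that list (3.01%). This alone places Tet2 KO at 76.7% or more and WT at 23.3% or less. The direct list gave the reverse-strand cytosine of the same CpG, at 30086524, with 62.2 points more in Tet2 KO than in Tet1 KO. It was the single Hes or Hey entry by the rule in that list. The CpG and its surroundings on the forward strand, capitals marking the listed CpG, read:
Hes1 21 kb downstream, chr16:30086494-30086553: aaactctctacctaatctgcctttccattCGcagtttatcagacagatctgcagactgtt
By the rule no Hes1 CpG was listed in Tet1 KO, DKO or TKO against WT, and absence from a list gives no value. Of 35 CpGs within 500 bp of the Hes1 start, 0 were within predicted reach, so no CpG of this core was predicted to be readable, although 134 of the 286 CpGs within 2000 bp were in reach.

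Hey1, a Hey factor of developing heart and vessels, had 4 entries on chromosome 3, all beyond its 3' end. At position 8635392, 31.6 kb after the start, Tet1 KO was 28.5 points and TKO 41.0 points higher than WT. At position 8635432, 40 bp away, the listed difference of TKO minus WT was -25.5 points, so that neighbouring CpGs had opposite signs in the same TKO clones. A CCGG lies between them, and they belong to different predicted fragments of 108 and 66 bp. At position 8661589, 5.45 kb after the start in a long terminal repeat of the ERVK class, Tet1 KO minus WT was -48.3 points. Capitals mark the listed CpGs in both forward-strand stretches:
Hey1 32 kb downstream, chr3:8635377-8635448: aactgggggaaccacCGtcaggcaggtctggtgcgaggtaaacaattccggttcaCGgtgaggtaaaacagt
Hey1 5 kb downstream, chr3:8661560-8661619: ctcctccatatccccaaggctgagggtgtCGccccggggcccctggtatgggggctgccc
The Hey1 start itself, with 110 CpGs within 500 bp of which 52 were in predicted reach, had no entry.

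Heyl, a Hey factor of vascular smooth muscle and skeletal muscle, had 1 CpG in the coding part of its last exon. At position 122923256 of chromosome 4, 12.5 kb after the start, TKO was 25.4 points higher than WT, close to the minimum of 25 points that an entry had to reach, and values below that minimum are not in the lists used here. Hes6, which counteracts Hes1 in neural differentiation of the mouse, entered through the DKO window alone. Position 93347915 of chromosome 1, in an intron of the circadian clock gene Per2 and 37.3 kb from Hes6, was 26.8 points higher in DKO than in WT. It was the farthest entry inside the 50 kb window. The nearest DKO entry outside it was 62.3 kb from Hes5 and was 65.6 points higher in DKO than in WT, and the next lay 66.3 kb from Hes6 at -27.1 points. Hes5, a main Notch effector of neural progenitors, and Hey2, which patterns heart and arteries, had no entry in any list by the rule. At their starts 57 of 94 CpGs (Hes5) and 34 of 95 CpGs (Hey2) were within predicted reach.

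**Figure D3:**
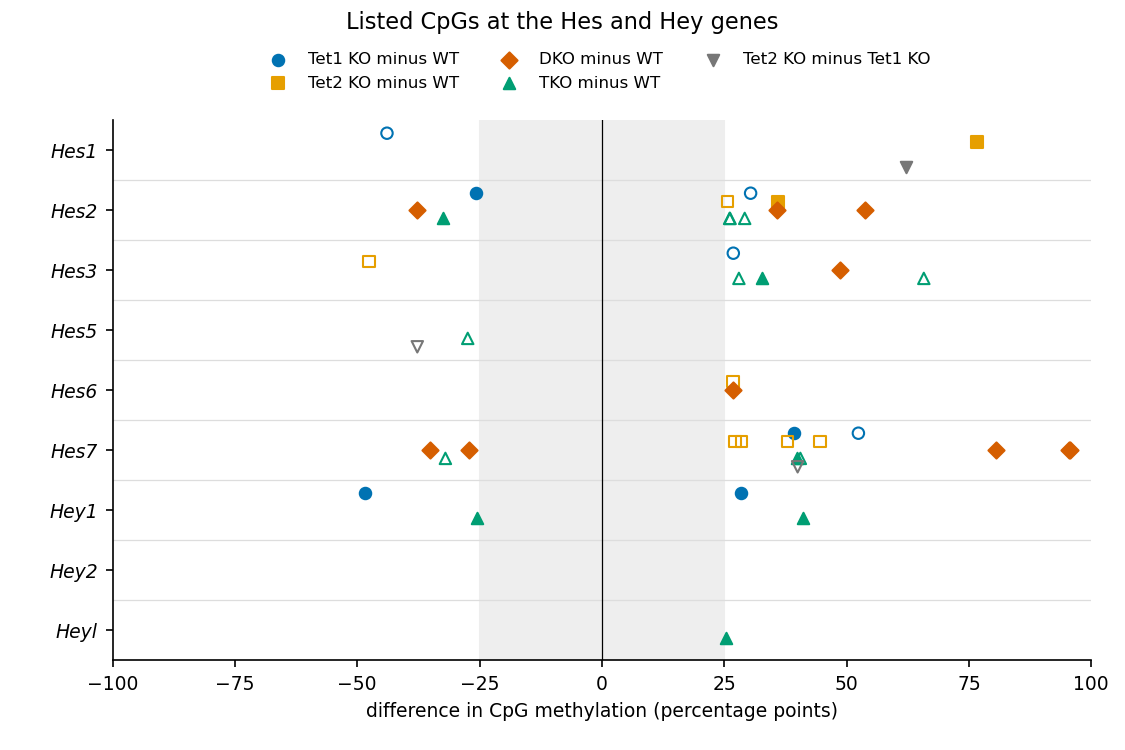
All listed CpGs at the 9 genes: rows are genes, the horizontal axis is the difference in percentage points and symbols give the comparison. Filled symbols are the 23 entries of the rule and open symbols are other CpGs in the gene or within 50 kb of it, which the lists name for a neighbouring gene. The grey band below 25 points can hold no entry. Hes7 reaches 95.7 points in DKO and Hes1 76.7 points in Tet2 KO, and Hey2 is empty.

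Counted over the family, the 4 knockout lists held 22 entries, 15 higher and 7 lower than WT. Of these, 16 had the member as their nearest gene in the deposited annotation, 12 higher and 4 lower, at 13 positions of which 3 were in 2 knockout lists each. Tet1 KO had 4 entries over 3 members, 2 higher and 2 lower, in a list with 65.6% higher. Tet2 KO had 2 entries over 2 members, both higher, in a list with 77.7% higher. DKO had 10 entries over 4 members, 7 higher and 3 lower, in a list with 64.8% higher. By the deposited annotation, the 4 DKO entries nearest to Hes7 or Hes3 were all higher, and the 6 nearest to other genes were 3 higher and 3 lower. By GENCODE starts the Hes3 entry was also nearer to another gene, Gpr153. TKO had 6 entries over 5 members, 4 higher and 2 lower, in a list with 58.6% higher. Tet2 KO against Tet1 KO had 1 entry, higher in Tet2 KO, in a list with 67.0% higher. The rule used these calls and nothing is read from the counts.

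The same was done by position for all genes. A CpG in the gene or within 50 kb was listed for 5 of the 9 members in Tet1 KO, against 34.7% of 22380 protein-coding genes, for 5 in Tet2 KO (38.0%), for 4 in DKO (39.0%), for 6 in TKO (42.4%) and for 3 in Tet2 KO against Tet1 KO (26.7%). Hes2, Hes3, Hes5 and Heyl lie on chromosome 4, and no listed CpG lay in the windows of 2 members. Within 2000 bp of a start the members with an entry were Hes7 and Hes2 in Tet1 KO (3.76% of all genes), Hes2 in Tet2 KO (4.66%), Hes7 in DKO (4.69%), Hes2 in TKO (5.59%) and none in Tet2 KO against Tet1 KO (2.81%). With 1 or 2 genes of 9 a share has little meaning.

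**Figure D4:**
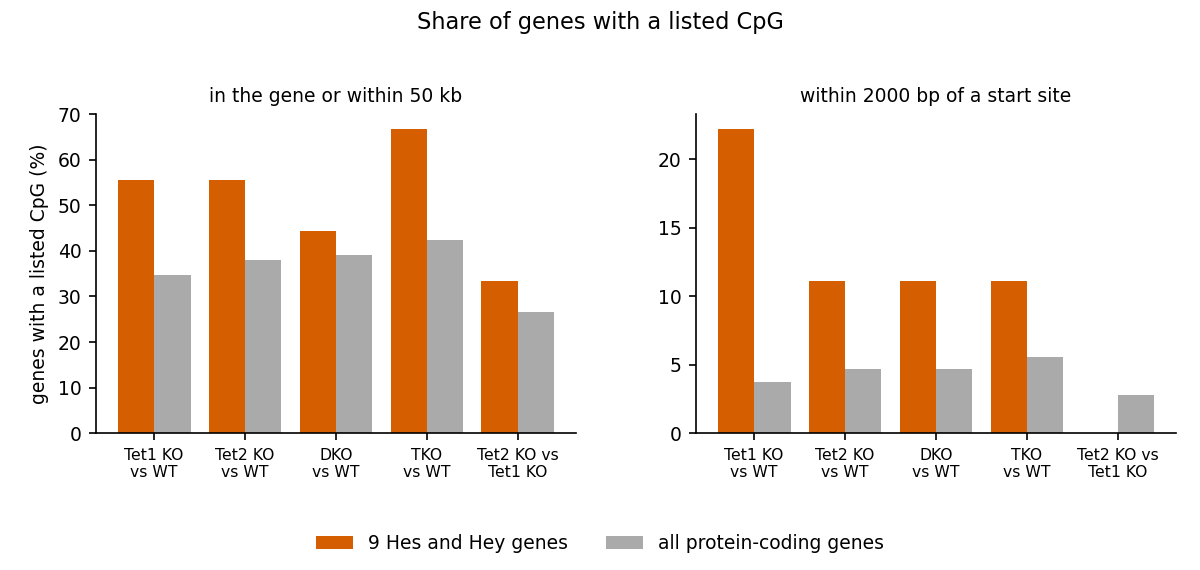
Percent of genes with a listed CpG in the gene or within 50 kb (left) and within 2000 bp of a start site (right), for the 9 Hes and Hey genes (orange) and all protein-coding genes (grey), by comparison. The near-start bars of the family stand for 2, 1, 1, 1 and 0 genes.

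The base composition of the start sites differed among the members. Hes5, Hey1 and Hey2 had 94, 110 and 95 CpGs within 500 bp of the start and an observed-to-expected CpG ratio of 0.80, 0.88 and 0.85, and none had an entry there. Hes7, Hes2 and Hes3 had 30, 45 and 20 CpGs and ratios of 0.42, 0.50 and 0.31. Hes1 had 35 CpGs (0.67), Hes6 had 73 (0.71) and Heyl had 52 (0.54). Over 22368 protein-coding genes the median was 40 CpGs and a ratio of 0.549. The 2 members with an entry near the start were thus among the 3 of lowest ratio, which is a description of 9 genes, chosen with these lists in view.

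Genes whose near-start pattern was most like that of Hes2 were found among the 61 other genes listed in Tet1 KO, Tet2 KO and TKO but not DKO, by the Euclidean distance between mean differences over the 3 lists. They were Nbeal2 (15.8 points away), Yipf4 (18.0) and Ucp2 (32.7), which encodes a mitochondrial carrier. Nbeal2 had -37.2 points in Tet1 KO, 46.5 in Tet2 KO and -29.9 in TKO, each relative to WT. For Hes7, compared in the same way after its values were seen, the nearest of 79 genes listed in Tet1 KO and DKO were Panx2 (13.4 points away; 27.8 in Tet1 KO and 83.7 in DKO), which encodes a pannexin channel, Nbl1 (13.9), a secreted BMP antagonist, and Sdsl (16.7).

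The genes upstream of Hes and Hey were looked up next, each scored by averaging its listed CpGs no more than 2000 bp from a start. These CpGs were taken by position, also where a list named another gene for them. Of 46 Notch pathway genes, 3 had an entry in Tet1 KO (2 higher, 1 lower), 5 in Tet2 KO (3 higher, 2 lower), 1 in DKO (by a mean near 0), 7 in TKO (6 higher, 1 lower) and 0 in Tet2 KO against Tet1 KO. The DKO gene, also counted among the 6 higher in TKO, was Dtx1, whose means of 0.83 points in DKO and 6.50 points in TKO each came from 2 CpGs of opposite sign. The counts are 6.52, 10.9, 2.17, 15.2 and 0% of the list, beside the shares of all genes given above, and no test was made. Among the ligands, Dll1 was 43.0 points and Jag1 33.8 points higher in TKO than in WT, and no ligand was listed near a start in the other knockouts. None of the 4 receptors was listed near a start.

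The proteases that release active Notch had the largest near-start values of the pathway. Adam10, which makes the outer cut, was 87.3 points higher in Tet2 KO and 38.8 points higher in TKO than in WT, at the same CpG (chromosome 9, position 70526122). Psen2, a catalytic subunit of gamma-secretase, was at -39.7 points in Tet1 KO, -56.4 points in Tet2 KO and -25.01 points in TKO relative to WT, with Tet2 KO and TKO at 1 CpG (position 182178765 of chromosome 1) and the Tet1 KO value at another (182178901). Psenen, another subunit, was 56.6 points higher in TKO than in WT. Ncstn, a further subunit, was at -26.7 points in Tet2 KO. The lists do not name Psenen or Ncstn for these CpGs, which were given to them by position alone.

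Of the modifiers, the ubiquitin ligase gene Neurl1b was 50 points higher in TKO than in WT. Dtx1, of the Deltex ligases, was 27.1 points higher in Tet1 KO than in WT, and in DKO and TKO its 2 CpGs each had opposite signs (34.7 and -33.0 points in DKO, 42.5 and -29.5 points in TKO). Dner, a Notch ligand-like gene, was 32.3 points higher in Tet2 KO. In the nuclear complex, Rbpjl, a relative of Rbpj that does not bind Notch, averaged 40.3 points over 2 CpGs in Tet2 KO, and Spen, a co-repressor of Rbpj, was 35.0 points higher in Tet1 KO than in WT. Rbpj itself was not listed near a start. The Tet2 KO list does not name Dner or Rbpjl for the CpGs given here, which were assigned by position alone.

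Co-repressors that Hes and Hey proteins use, 12 genes matched of 13 names, had entries near a start at 2 genes in Tet1 KO (1 higher, 1 lower), 3 in Tet2 KO (2 higher, 1 lower), 4 in DKO (3 higher, 1 lower), 2 in TKO (1 higher, 1 lower) and 0 in Tet2 KO against Tet1 KO. These are 16.7, 25, 33.3, 16.7 and 0% of 12 genes, beside 3.76, 4.66, 4.69, 5.59 and 2.81% of all genes, and no test was made. Sin3a, the scaffold of a histone deacetylase complex, was the only one in all 4 knockout lists. At position 56927121 of chromosome 9, Tet1 KO was 29.4, Tet2 KO 65.0, DKO 36.1 and TKO 65.0 points higher than WT, all against the same WT clones. In TKO another Sin3a CpG, at 56922377, was 30.2 points higher than WT, so the TKO mean over 2 CpGs was 47.6 points. Tle2, a Groucho co-repressor, was at -31.9 points in Tet2 KO and TKO and at 31.0 points, at another CpG, in DKO. Tle6 was at -43.6 points (Tet1 KO) and at 37.1 points (DKO) at different CpGs, and Hdac2 averaged -39.8 points over 2 CpGs in DKO.

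Of 26 bHLH genes, most of them proneural or other lineage factors, 0 had an entry near a start in Tet1 KO, 2 in Tet2 KO (1 higher, 1 lower), 3 in DKO (all higher), 2 in TKO (1 higher, 1 lower) and 0 in Tet2 KO against Tet1 KO. These are 0, 7.69, 11.5, 7.69 and 0% of the list, beside the same shares of all genes, and no test was made. Olig3, of the spinal cord, was 48.1 points higher in Tet2 KO and 26.6 points higher in DKO than in WT. Neurog3, of endocrine pancreas, was at -31.5 points in Tet2 KO and 35.0 points in DKO, at different CpGs. Ascl2 was 38.3 points higher and Olig1 at -34.8 points in TKO, and Helt, a bHLH-Orange relative of the Hes genes, averaged 27.5 points over 2 CpGs in DKO. The proneural genes Neurog1 and Neurog2 had none. Of 8 ESC marker genes, Pou5f1 and Nanog among them, 0 had an entry near a start in the 4 knockout lists, and 1, Esrrb, had one in the direct list, where Tet2 KO minus Tet1 KO was -62.5 points. Of 5 fibroblast marker genes, Col1a2, a collagen gene, had an entry near a start and was 32.2 points higher in Tet1 KO and 27.6 points higher in Tet2 KO than in WT. Such a look-up does not check the cell type.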

How the data were processed

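RRBS libraries (Diagenode Premium RRBS kit) of 12 ESC clones were sequenced by the authors. Trim Galore 0.5 trimmed the reads and Bismark 0.19.1 mapped them to mm9. The authors then compared genotypes with methylKit and annotated the CpGs with HOMER. The paper states that clones of a genotype were treated as biological replicates. What they deposited is other than a level or a count: per CpG, a difference in percentage points and the distance to a start site in bp. Entries had at least 10 reads per CpG, a q-value below 0.05 and a difference of at least 25 points. Depth and levels were not analysed here, so no interval is given.

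Here entries were assigned to genes and counted (Python 3.11.15, pandas 2.3.3). Differences are knockout minus WT. For the direct list, 141 of the 149 entries also held by both single knockouts gave Tet2 KO over Tet1 KO as the direction. In the DKO list, 4 rows named Hes7 or Hes3 stood on chromosomes 1, 6, 7 and 13, and their distances gave exactly the 4 DKO positions reported at those genes. Genes came from GENCODE vM1 on NCBIM37, whose CpGs matched all positions on assembled chromosomes. Predicted fragments were 40 to 220 bp between CCGG cuts, with CpGs in reach within 38 bases of an end, and 80.9 to 81.4% of knockout-list entries were in reach. Assignment, digestion and motif search were tested on simulated data. All listed CpGs of members were named, up to 8 genes per pathway list by number of knockout lists and size (Jag1, Dner and Ncstn were added after their values were seen), and up to 3 genes most like Hes2. A gene that this rule names is not reported here. The members and lists were chosen with earlier results of these data known. No test was made, since the lists hold only calls.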

Additional observations from a re-analysis of the deposited data

How the results depend on the processing

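Counts of entries depended on how a CpG was given to a gene. Given by position in the gene or 50 kb, Tet1 KO had 8 CpGs (5 higher) in place of 4 (2 higher), Tet2 KO 9 (8 higher) in place of 2 (2 higher), TKO 14 (10 higher) in place of 6 (4 higher), and Tet2 KO against Tet1 KO 3 (2 higher) in place of 1 (1 higher). The 10 DKO CpGs (7 higher) became 6 (4 higher) as merged regions or within 20 kb. Where the nearest GENCODE start was the member's, 3 (3 higher) remained. Gene names as deposited gave 4 rows (4 higher), but these rows hold other CpGs, on chromosomes 1, 6, 7 and 13. None of them is among the 10, so that count does not describe the members. Within 2000 bp of the start, Tet1 KO had 2 (1 higher), Tet2 KO 1 (1 higher), DKO 3 (3 higher), TKO 1 (0 higher) and Tet2 KO against Tet1 KO 0 (0 higher). At a minimum of 30 points Tet1 KO had 2 (1 higher), 1 bHLH gene in place of 3 remained in DKO and 1 co-repressor in place of 2 in Tet1 KO. At 40 points Tet1 KO had 1 (0 higher), Tet2 KO 1 (1 higher), DKO 5 and TKO 1 (1 higher). Fewer entries are kept by construction under a stricter minimum or distance. The other 47 of 84 alternative values stayed within 1.5 times the count or within the SD over CpGs. Among them were the near-start means at 500 and 5000 bp and the Hes7 DKO median of 95.4 points. Those near-start means could not move, since both windows held the same CpGs as that of 2000 bp. Apart from Hes7 in DKO, each mean rested on 1 CpG, so its median was fixed as well. No paired analysis was possible because the lists have no column for a single clone, and for the same reason no clone could be left out.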

Other observations

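Near-identical differences recurred between knockout lists. The Hes6-window CpG in Per2 had 26.8 points in both Tet2 KO and DKO, the Sin3a CpG 65.0 points in both Tet2 KO and TKO, and the Tle2 CpG -31.9 points in both Tet2 KO and TKO, each pair equal within 1e-06 points. Over all CpGs that 2 knockout lists share, 10.7 to 20.7% had equal differences at that tolerance, most for Tet2 KO and DKO (293 of 1418 CpGs). The lists share their WT clones, and equal differences mean equal knockout levels wherever the WT level was the same. The cause was not tested.

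Several CpGs within 50 kb of a member were listed for a neighbouring gene. At Rpl22, which encodes a ribosomal protein, 32.9 kb before the Hes3 start, TKO was 65.8 points higher than WT. At Icmt, 14974 bp before the Hes3 start, Tet2 KO minus WT was -47.5 points. In a noncoding transcript 27.4 kb before the Hes1 start, Tet1 KO minus WT was -43.9 points. At the start of the lipoxygenase gene Alox12b, 36.6 kb after that of Hes7, Tet2 KO was 37.9 points higher than WT and 40 points higher than Tet1 KO. Near Hes5, TKO minus WT was -27.4 points in Plch2, and Tet2 KO minus Tet1 KO was -37.7 points near Tnfrsf14.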
